A study of Mus musculus with 4 samples.

Results

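The interleukins and their receptors were examined in mouse embryonic fibroblasts (MEFs), as every protein-coding gene of the deposited count table whose symbol is Il followed by a digit. The rule took 84 of 55487 genes, with 82 symbols, because Il11ra2 has 3 gene entries, 2 of them on unplaced scaffolds. Of the 84 genes, 41 encode receptor chains, 37 encode ligands, 5 encode inhibitors or decoys and 1, Il4i1, encodes an enzyme. Wild-type MEFs, prepared from C57BL/6J embryos, were either left untreated (control) or given pigment epithelium-derived factor (PEDF), a secreted glycoprotein, as a recombinant protein that the labels describe as purified from mammalian cells, at 100 ng/mL for 24 h. Polyadenylated RNA was sequenced in 2 experiments with 1 control and 1 PEDF library each, and each experiment used MEFs from its own embryos. The sample labels give the cells as passage 2, whereas the study's text gives a later passage. A MEF culture is a mixed primary culture. With 2 libraries a condition, the tests by treatment alone measure only the spread between these preparations. Fits with the experiment as a further term (a block) remove the difference between preparations and measure only the spread that is left.

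Interleukins are secreted proteins through which cells, above all those of the immune system, instruct each other. Most members of the IL-1 family bind a receptor chain and the shared accessory chain IL-1RAP, and the family signals through MYD88 and IRAK kinases to NF-kappaB, as does the IL-17 family through its own adaptor. Members of the IL-6, IL-10 and common gamma chain families signal through JAK kinases and STAT factors, with chains such as gp130, which Il6st encodes, shared by many ligands. Fibroblasts are known mainly as responders to these ligands and as sources of a few of them, such as IL-6, IL-11 and IL-33. Secreted interleukins are also part of the secretory phenotype of senescent cells, the state in which the study examined PEDF.

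The libraries held 14722848 to 18144640 counts on 22135 to 22647 genes with a count. All 10 fibroblast markers examined, collagens and fibronectin among them, were detected in every library, with a summed level of 43130 to 55420 CPM (the count scaled to library size). Macrophage markers were present at a lower level, with none of 12 at 0 and a sum of 127.8 to 201.9 CPM, including 195 to 255 counts of Adgre1 and 46 to 73 of Ptprc. Lymphocyte markers summed to at most 0.4066 CPM, with Cd8a at 0. The 8 mast cell markers summed to 3.153 to 4.54 CPM, of which Kit had 46 to 64 counts a library, Cma1, Ms4a2 and Hdc had 0 to 4, and Cpa3, Fcer1a, Mcpt4 and Tpsb2 were at 0 in all 4 libraries. The 6 epithelial markers summed to 42.55 to 56.72 CPM. Of these Krt18 had 378 to 424 counts a library, Krt8 233 to 355, Epcam 15 to 18 and Krt5 1 to 5. The 5 endothelial markers summed to 16.02 to 16.73 CPM. Fewer cells of a type and less RNA per cell cannot be told apart in such bulk libraries.

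MEFs expressed the receiving side of interleukin signalling far more than the ligands. Of the 84 genes, 28 (33.3%) had a level of at least 1 TPM (the count scaled by gene length and depth) in every library, against 55.7% of all 21936 protein-coding genes. No count at all was found for 22 genes, 17 had 1 to 9 counts in total, and 45 had the 10 counts needed for a test. The expressed genes comprised 19 of 41 receptor chains but 6 of 37 ligands, together with 2 of 5 inhibitors and Il4i1. The receptor chains summed to 399.4 to 419.0 TPM in the 4 libraries, and the ligands to 33.85 to 36.27 TPM. A count of 0 in a library allows a level of up to 0.168 to 0.203 CPM, for counting error only.

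Il6st, the gene of gp130, was the most abundant member by length-scaled level. It lies on chromosome 13 from 112464070 to 112510086, and it had 118 ± 5.13 TPM (SD, n = 4 libraries, as for all TPM means here) and made up 24.8% to 26.3% of the summed TPM of all members. The other 10 genes above 10 TPM began with 4 receptor chains whose levels lay close together. Il11ra1, the IL-11 receptor, had 44.7 ± 7.55 TPM, and Il13ra1, a chain of the IL-13 receptor, had 39.2 ± 0.872 TPM. Il1rl1, which encodes the IL-33 receptor ST2, had 37.4 ± 6.02 TPM, and Il1r1, the signalling IL-1 receptor, had 35.8 ± 1.99 TPM. In this order the libraries of each of these 4 genes overlapped those of the next, so neighbours did not differ beyond their spread. Il3ra (27.2 ± 1.92 TPM), a chain of the IL-3 receptor, and Il4ra (25.5 ± 1.69 TPM), which serves both IL-4 and IL-13, overlapped each other and lay below all libraries of Il1r1.

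Below these lay Il17rc at 18.1 ± 0.767 TPM and Il1rn, the secreted antagonist of the IL-1 receptor, at 16.2 ± 0.727 TPM. They were followed by Il1rl2, the IL-36 receptor, at 12.7 ± 0.653 TPM and Il17rd at 10.6 ± 0.394 TPM, and no library of one of these 4 genes overlapped those of the next. Il17ra, the chain that IL-17A and IL-17F need beside IL-17RC, had 7.51 ± 0.847 TPM. Il1rap, the accessory chain of the IL-1 receptors, had 4.91 ± 0.471 TPM, and Il10rb, shared by several receptors of the IL-10 family, had 9.92 ± 0.978 TPM. Both chains of the IL-4 and IL-13 receptor of non-immune cells were thus among the most abundant members, whereas Il2rg, the common gamma chain, had only 1.78 ± 0.941 TPM. Il6ra, the chain that binds IL-6 itself, had 1.80 ± 0.132 TPM, far under its partner Il6st.

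The 6 ligands that reached 1 TPM in every library were all below 10 TPM on average. Il17d had 9.34 ± 1.34 TPM, Il11 had 5.87 ± 1.6 TPM, and the alarmin gene Il33 had 4.53 ± 1.30 TPM. Il17b had 3.54 ± 0.582 TPM, Il34, a ligand of the CSF-1 receptor, had 2.69 ± 0.137 TPM, and Il4 had 2.09 ± 0.880 TPM on 8 to 21 counts a library. Il18 averaged 2.52 ± 1.41 TPM but had 0.925 TPM in the control library of experiment 1. The remaining expressed genes ran from Il18bp, the IL-18 binding protein (2.57 ± 0.431 TPM), through Il18rap (2.14 ± 0.326 TPM), Il4i1 (1.99 ± 0.0696 TPM), Il15ra (1.89 ± 0.130 TPM) and Il20ra (1.81 ± 0.676 TPM) to Il27ra (1.29 ± 0.270 TPM). Il20rb (1.22 ± 0.245 TPM) and Il10ra (1.04 ± 0.334 TPM) averaged above 1 TPM without reaching it in every library.

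**Figure D1:**
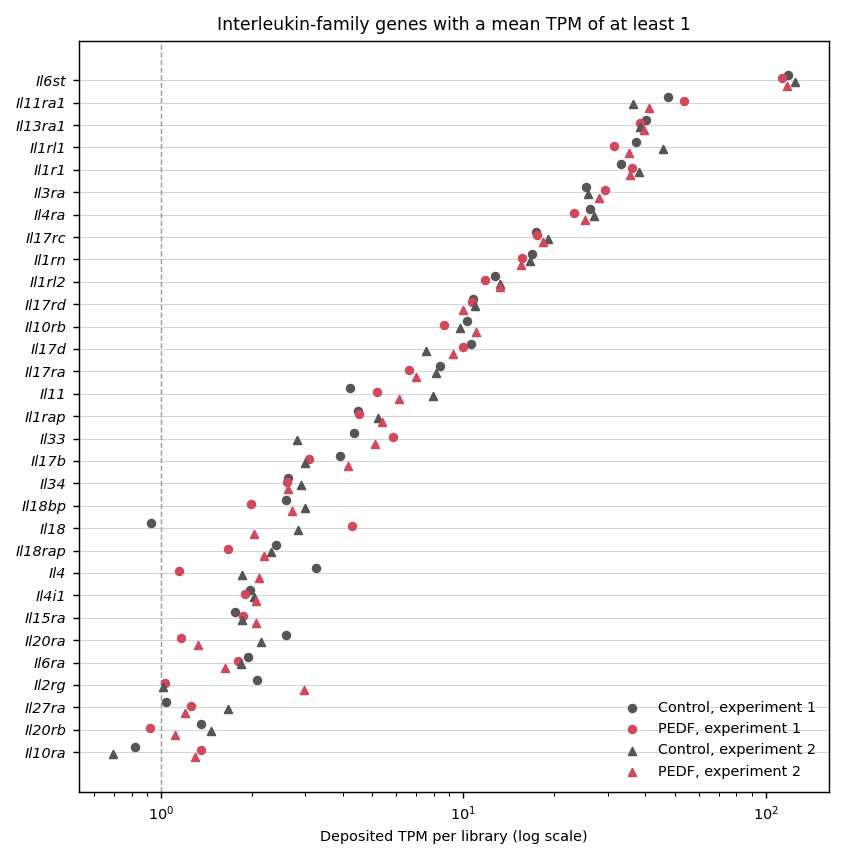
Deposited TPM (horizontal log axis) of the members with a mean of at least 1 TPM, 1 point for each of the 4 libraries, with controls in grey, PEDF in red, experiment 1 as circles and experiment 2 as triangles. The dashed line marks 1 TPM. Il6st stands alone above 100 TPM, and mainly receptor chains fill the range down to 10 TPM.

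Il1a and Il1b, the genes of the IL-1 ligands, had few or no counts. Il1b had 1 count in all, in the control library of experiment 2, and Il1a had 1, 0, 7 and 5 counts in control 1, PEDF 1, control 2 and PEDF 2. Il6 was low but present, with 13, 10, 22 and 11 counts in the same order, or 0.988 ± 0.350 TPM. The 22 genes with no count included the T cell cytokines Il13, Il17a, Il21, Il22 and Il31, the IL-12 subunit Il12b, and Il2ra, the inducible chain of the IL-2 receptor. Il18r1, the ligand-binding chain for IL-18, had 2, 2, 1 and 0 counts although Il18, Il18bp and Il18rap were measured. By family, all 5 ligands of the IL-10 family together had 1 count, while the receptor chain Il10rb was expressed.

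Expression also differed along shared stretches of the genome, given here in GRCm38 coordinates. The receptor cluster on chromosome 1, from 40074079 to 40551705, held 6 members in 478 kb, of which Il1r1, Il1rl2, Il1rl1 and Il18rap were expressed. Il18r1 and Il1r2, the IL-1 decoy receptor, lie in the same stretch, and Il1r2 had only 3 to 9 counts a library. The cluster on chromosome 2, from 24153161 to 24351494, held 6 members in 198 kb, of which Il1rn was expressed and the other 5, the genes of the IL-36 group and Il1f10, had no count. In the cluster of Il24, Il20, Il19 and Il10 on chromosome 1 none was expressed, and in that of Il4, Il13 and Il5 on chromosome 11 only Il4 was. These were the 4 runs of at least 3 members with gaps of no more than 200 kb.

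The promoters of the expressed genes held more CpG dinucleotides than those of the silent ones. RefSeq promoters (GRCm38.p6, 250 bases before to 50 after each start) were found for 65 of the 82 symbols, and where a gene had several the values were averaged. The median was 7.0 CpG in the 23 expressed genes, with a range of 1.5 to 35.0, against 5.0 in the 25 genes in between and 3.0 in the 17 genes with no count, with a range of 0.5 to 6.0. At least 10 CpG were present in 10 of the 23 expressed genes (43.5%), in 5 of the 25 in between and in none of the 17 without a count. Over all 27025 genes of the table the median was 7.0 CpG and the share with at least 10 was 44.4%, so the expressed members had the median of genes in general and the silent ones lay below it. Of the 16 expressed receptor genes 56.2% had at least 10 CpG, and of the 4 expressed ligand genes 1 (25.0%) did. This is a description of letters in a window and no measurement of methylation was made.

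The 6 promoters shown next span this range and belong to the genes that carry the results. They are Il6st, the most abundant member, Il1b, which was nearly silent, and both RefSeq promoters of Il1rl1 and of Il33, a receptor and its ligand. Each is written 5′ to 3′ on the strand of the gene, with CpG in capitals.
Il6st (chr13:112463820-112464119, plus strand): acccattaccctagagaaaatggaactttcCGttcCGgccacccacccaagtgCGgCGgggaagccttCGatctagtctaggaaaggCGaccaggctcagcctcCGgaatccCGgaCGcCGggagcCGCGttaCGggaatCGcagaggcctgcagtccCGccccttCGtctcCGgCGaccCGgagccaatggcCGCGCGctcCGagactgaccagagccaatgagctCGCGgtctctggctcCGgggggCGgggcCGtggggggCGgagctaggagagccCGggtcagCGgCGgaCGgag
Il1b (chr2:129371090-129371389, minus strand): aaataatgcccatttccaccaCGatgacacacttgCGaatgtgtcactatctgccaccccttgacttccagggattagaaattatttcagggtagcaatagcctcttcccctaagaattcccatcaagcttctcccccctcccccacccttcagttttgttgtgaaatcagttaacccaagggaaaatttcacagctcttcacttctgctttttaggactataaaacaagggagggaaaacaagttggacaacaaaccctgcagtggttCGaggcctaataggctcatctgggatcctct
Il1rl1 upstream start (chr1:40429320-40429619, plus strand): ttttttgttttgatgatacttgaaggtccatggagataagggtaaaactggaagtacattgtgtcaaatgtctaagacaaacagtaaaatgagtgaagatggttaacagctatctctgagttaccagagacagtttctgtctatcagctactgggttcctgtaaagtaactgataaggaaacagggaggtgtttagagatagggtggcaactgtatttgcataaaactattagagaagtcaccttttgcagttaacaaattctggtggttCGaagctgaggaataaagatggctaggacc
Il1rl1 downstream start (chr1:40439379-40439678, plus strand): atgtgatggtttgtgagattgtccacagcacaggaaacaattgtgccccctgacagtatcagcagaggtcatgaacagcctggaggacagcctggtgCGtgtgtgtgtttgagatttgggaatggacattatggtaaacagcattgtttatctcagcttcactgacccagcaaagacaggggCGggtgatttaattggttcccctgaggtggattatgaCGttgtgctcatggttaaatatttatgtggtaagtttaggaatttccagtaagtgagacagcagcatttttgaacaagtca
Il33 upstream start (chr19:29924863-29925162, plus strand): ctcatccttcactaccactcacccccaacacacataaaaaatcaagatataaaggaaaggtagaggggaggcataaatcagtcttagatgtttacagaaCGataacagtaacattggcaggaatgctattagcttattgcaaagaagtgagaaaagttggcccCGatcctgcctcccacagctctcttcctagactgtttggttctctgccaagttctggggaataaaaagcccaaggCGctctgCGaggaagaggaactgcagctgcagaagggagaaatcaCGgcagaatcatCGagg
Il33 downstream start (chr19:29945540-29945839, plus strand): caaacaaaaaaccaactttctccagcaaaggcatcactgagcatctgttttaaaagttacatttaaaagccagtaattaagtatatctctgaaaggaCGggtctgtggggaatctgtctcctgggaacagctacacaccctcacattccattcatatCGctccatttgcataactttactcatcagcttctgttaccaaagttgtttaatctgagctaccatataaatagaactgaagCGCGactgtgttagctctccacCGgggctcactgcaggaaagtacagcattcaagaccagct

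The Il6st window held 33 CpG and the Il1b window 3. Il1rl1 had 1 CpG in its upstream window and 3 in its downstream one at a level of 37.4 TPM. Il1rl2 and Il1rn, also above 10 TPM, had 3.0 and 3.33, so some expressed members had few CpG. The Il33 windows held 6 and 5 CpG. The letters TATAAA, searched on both strands, were in the Il1b window and in both Il33 windows, and in 15.7% of all genes of the table. They were present in 3 of the 23 expressed members, 7 of the 25 in between and 3 of the 17 without a count. The counts per gene cannot tell which start was used.

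**Figure D2:**
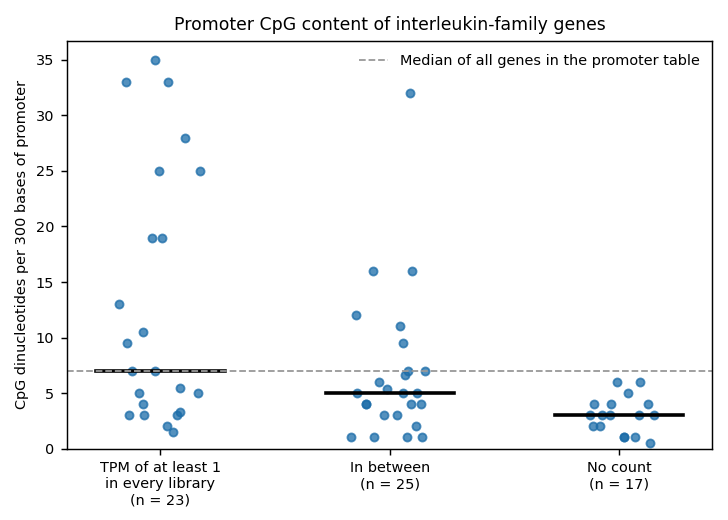
CpG dinucleotides per 300 bases of promoter (vertical axis) for the 65 members with a RefSeq promoter, 1 point a gene, in 3 classes by expression, with the class median as a black bar and the median of all genes as a dashed line. The 17 genes with no count all lie at or below 6.0, while the 23 expressed genes reach 35.0.

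No interleukin or receptor gene differed between PEDF and control at an adjusted p under 0.05 when the 4 libraries were compared by treatment alone. In edgeR's quasi-likelihood test 0 of the 45 tested members passed, with a smallest adjusted p of 0.696, and over all 19384 genes tested 0.00516% passed. At an unadjusted p under 0.05 edgeR found 4 members, Il1rl1, Il33, Il17ra and Il20ra, where 6.88% of all genes tested passed. DESeq2 found 0 members after adjustment, against 0.0155% of all genes, and 1, Il1rl1, before it, against 2.14%. The median log2 fold change of the 45 members was -0.0325, and that of all genes tested was 0.00118.

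Because each experiment had MEFs of its own embryos, the control of the same experiment is the closest comparison, and with the experiment as a block edgeR called 2 of the 45 members. Il1rl1 fell and Il11ra1 rose, against 3.75% of all genes tested that were called in either direction. At an unadjusted p under 0.05 this fit found 6 members, where 14.6% of all genes passed. When a trend of the fold change with gene length was also removed, Il1rl1 alone remained, against 2.16% of all genes. DESeq2 with the block gave an adjusted p for 1 member alone, Il6st, and called 0 members, against 0.609% of all genes, with 1 at an unadjusted p under 0.05, against 2.33%.

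Il1rl1 (chromosome 1, 40429570 to 40465415), the receptor of IL-33, was lower with PEDF in both experiments. Its level was 91.2 CPM in control 1 and 79.2 CPM in PEDF 1, and 108.9 CPM in control 2 and 84.6 CPM in PEDF 2. Both PEDF libraries were thus below both controls. Within experiments the log2 ratio was -0.20 (95% interval from the counts -0.32 to -0.09) and -0.36 (-0.46 to -0.27), and these intervals cover counting error only. The edgeR fold change was -0.29 ± 0.09 (log2, SE, n = 2 and 2, adjusted p = 0.696), which is 1.22-fold lower. With the block it was -0.29 ± 0.06 (edgeR, adjusted p = 0.000106), and with the length trend removed -0.25 (adjusted p = 0.00159). Leaving out control 1, without the block, gave -0.41 (edgeR, adjusted p = 0.0190), but that fit sets the PEDF libraries against control 2 alone, the library with the highest Il1rl1 level, which is assumed to vary like them. Leaving out each of the others gave -0.34 to -0.16, none of which passed. The summed fibroblast markers were also lower with PEDF, at 43130 against 47590 CPM in experiment 1 and 46540 against 55420 CPM in experiment 2, but the list was split. With the block edgeR called 5 of the 10, of which Col1a1, Col1a2, Fn1 and Pdgfrb fell and Dcn rose, at log2 fold changes of -0.24, -0.12, -0.37, -0.22 and 0.35, while Vim was at 0.01 and Postn at -0.00. Their part in Il1rl1 was not tested.

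Il33 (chromosome 19, 29925114 to 29960718), the ligand of that receptor, was higher with PEDF in both experiments. It had 66 counts in control 1 and 96 in PEDF 1, and 50 in control 2 and 91 in PEDF 2, or 4.47, 6.18, 2.80 and 5.11 CPM. The lowest PEDF library lay above the highest control. The log2 ratio was 0.47 (-0.00 to 0.94) in experiment 1 and 0.87 (0.35 to 1.39) in experiment 2. The fitted log2 fold change was 0.64 ± 0.26 (edgeR, unadjusted p = 0.0232, adjusted p = 0.696), a 1.56-fold difference that did not pass. With the block the adjusted p of edgeR was 0.0673, and with the length trend removed it was 0.153. Leaving out each library in turn gave 0.33 to 1.00, the smallest without control 2 and the largest without control 1.

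Il11ra1 (chromosome 4, 41699989 to 41769474) was higher with PEDF within each experiment, but the experiments differed by more than the treatments. It had 75.3 CPM in control 1 and 87.7 CPM in PEDF 1, and 56.2 CPM in control 2 and 64.0 CPM in PEDF 2, so that PEDF 2 lay below control 1. The log2 ratio was 0.22 (0.10 to 0.34) and 0.19 (0.07 to 0.31). By treatment alone the fold change was 0.21 ± 0.22 (log2, edgeR, adjusted p = 0.892), and with the block it was 0.21 ± 0.06 (adjusted p = 0.0368). The adjusted p was 0.0623 with the length trend also removed. Without the block, leaving out PEDF 1 turned it to -0.03 and leaving out control 1 raised it to 0.43. Il11ra1 shares 15.8% of its 50-base windows and 10.3% of its 100-base windows with its related copy Il11ra2, of whose own windows these are 59.3% and 41.8%, so reads wholly on those stretches could not be assigned uniquely.

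Il17ra and Il20ra were the other members below an unadjusted p of 0.05. Il17ra had 25.7 and 24.3 CPM in the controls and 20.91 and 20.99 CPM with PEDF, which gave a fold change of -0.25 ± 0.11 on the log2 scale (edgeR, adjusted p = 0.705, 0.177 with the block). Il20ra, a receptor chain for IL-19, IL-20 and IL-24, none of which had a count, had 33 and 32 counts in the controls and 16 and 20 with PEDF. Its log2 fold change was -0.89 ± 0.39 (edgeR, adjusted p = 0.707, 0.257 with the block). In both genes the PEDF libraries lay below the controls.

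**Figure D3:**
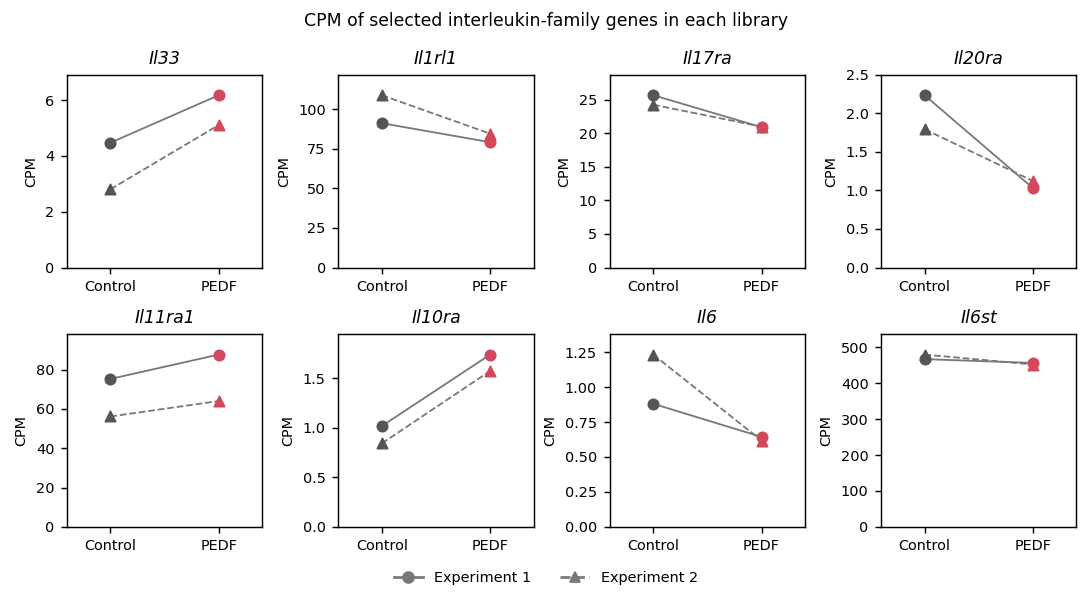
CPM (vertical axis, from 0, scaled by library-size factors) of 8 members in the control and PEDF library of experiment 1 (circles, solid lines) and experiment 2 (triangles, dashed lines). Il33 and Il10ra slope upward and Il1rl1, Il17ra, Il20ra and Il6 downward in both experiments, Il11ra1 slopes upward from 2 different starting levels, and Il6st is nearly level.

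Il6 and Il10ra had like directions in both experiments on few counts. Il6 had 13 counts in control 1, 10 in PEDF 1, 22 in control 2 and 11 in PEDF 2, which gave a fold change of -0.75 ± 0.53 on the log2 scale (edgeR, adjusted p = 0.794). Its 95% interval, -1.88 to 0.38, included 0. Il10ra, the chain that binds IL-10, had 15 counts in each control and 27 and 28 with PEDF, which gave a fold change of 0.83 ± 0.42 on the log2 scale (edgeR, adjusted p = 0.739). Il10ra is known mainly from leukocytes, and the summed macrophage markers stood at 201.9, 197.6, 127.8 and 163.3 CPM in control 1, PEDF 1, control 2 and PEDF 2, higher with PEDF in experiment 2 but not in experiment 1. Of the 12 macrophage markers Lyz2, C1qa, C1qb and C1qc were higher with PEDF in both experiments, as Il10ra was. Csf1r was lower in both, at 33.7 and 29.3 CPM in control 1 and PEDF 1 and 30.3 and 28.6 CPM in control 2 and PEDF 2. Adgre1, Itgam, Cd14, Fcgr1, Mrc1 and Cx3cr1 were lower with PEDF in experiment 1 and higher in experiment 2, and Ptprc the reverse. With the block edgeR called 1 of the 12, Lyz2, at a log2 fold change of 0.39, and the part of these cells in Il10ra was not tested.

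Il6st and most of the abundant receptors differed little between the conditions. Il6st had 467.2 and 456.7 CPM in experiment 1 and 480.0 and 452.3 CPM in experiment 2, a log2 fold change of -0.06 ± 0.07 with a 95% interval of -0.20 to 0.08 (edgeR). Il13ra1 lay between 49.3 and 53.0 CPM in all libraries, a fold change of 0.02 ± 0.08 with an interval of -0.16 to 0.19. Il4ra was at -0.11 ± 0.08, Il1rn at -0.09 ± 0.10, Il1r1 at 0.03 ± 0.08, Il17rd at -0.04 ± 0.09 and Il17rc at 0.00 ± 0.12 on the log2 scale, none past the test. Il3ra was higher in both PEDF libraries, at 31.9 and 29.0 CPM against 26.8 and 26.4 CPM, which gave a fold change of 0.19 ± 0.10 on the log2 scale (edgeR, adjusted p = 0.742). The less abundant genes had wider errors. Il1rap, Il17d, Il17b, Il15ra and Il34 had log2 fold changes of -0.05 to 0.14, Il18bp, Il18rap, Il20rb and Il4 of -0.61 to -0.23, and none passed the test. Of the 14 members with at least 400 counts, 11 had a log2 fold change smaller than 0.2 in size, and the range was -0.29 to 0.21. In 14 of the 45 tested members the interval of the blocked fit lay within 0.5 of 0.

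Across the 45 tested members, both PEDF libraries lay above both controls in 6 (13.3%, against 18.9% of all genes tested) and below both in 10 (22.2%, against 18.4%). The log2 ratio had the same sign in both experiments in 22 members (48.9%, against 58.9%), 9 of them higher and 13 lower. In experiment 1 the counting interval lay above 0 for 6 members, against 9.95% of all genes, and below 0 for 4, against 10.2%. In experiment 2 it lay above 0 for 3 members, against 12.8%, and below 0 for 4, against 12.7%. The interval excluded 0 in the same direction in both experiments for Il11ra1 upward (2.22%, against 3.44% of all genes) and for Il1rl1 and Il17ra downward (4.44%, against 3.88%). Of the 29 tested receptor genes 5 lay above and 7 below the controls without overlap, and of the 12 tested ligands 1 lay above, Il33, and 2 below. For 4 members (8.89%, against 3.84%) the ratios had opposite signs in the 2 experiments with intervals that did not overlap, namely Il1r1, Il2rg, Il18 and Il7r. By family, the 4 members with an unadjusted p under 0.05 were 2 of 13 tested in the IL-1 family, 1 of 5 in the IL-17 family and 1 of 4 in the IL-10 family, where 6.88% of all genes passed.

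**Figure D4:**
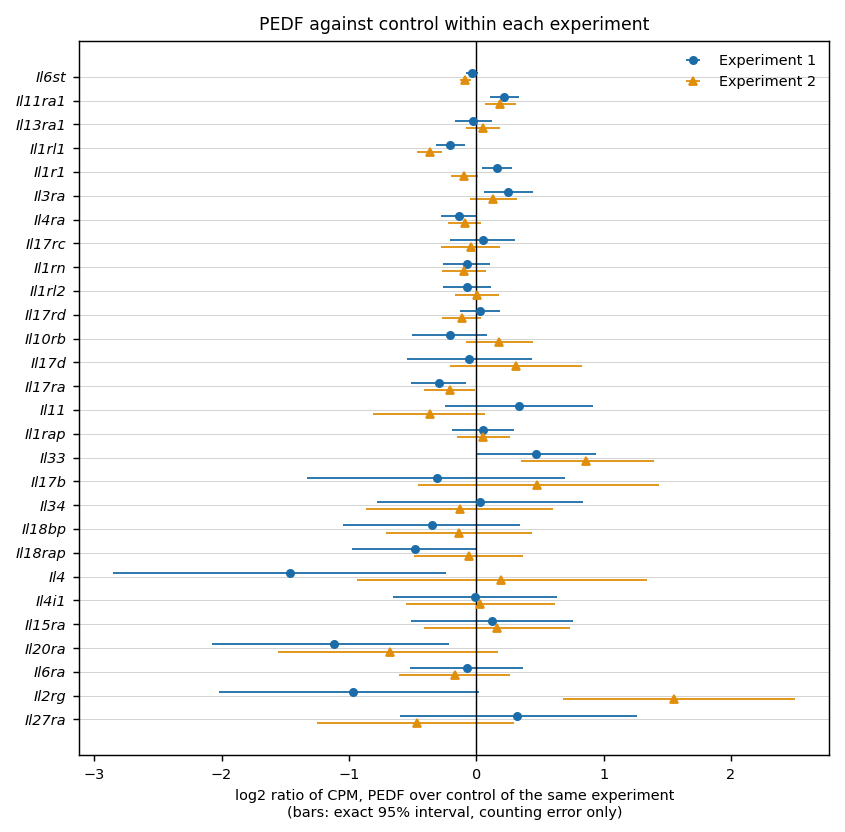
Log2 ratio of CPM in the PEDF library over the control of the same experiment (horizontal axis) for the 28 expressed members, from the most abundant at the top, with experiment 1 as circles and experiment 2 as triangles. Bars are exact 95% intervals from the counts and cover counting error only, with 1 library in each arm. Both intervals lie to the left of 0 for Il1rl1 and Il17ra and to the right for Il11ra1, and the 2 intervals of Il1r1 and those of Il2rg do not overlap.

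The MEF preparations were also compared with each other, and shares of all genes tested are given beside the members. Experiment 2 against experiment 1 gave 0 of 45 members at an adjusted p under 0.05 in edgeR without the treatment as a term, against 0.0567% of all genes, and 4 at an unadjusted p, against 7.67%. DESeq2 also gave 0 members, for which the share of all genes is not given here. With the treatment as a term 1 member, Il11ra1, was called, against 4.49% of all genes, and it was called with the length trend removed as well, against 3.13%. Its log2 difference was -0.44 ± 0.09 (edgeR, adjusted p = 0.141, and 1.82e-09 with the treatment as a term), so that it was lower in experiment 2. The other 3 were Il15 at -1.46 on the log2 scale, Il11 at 0.52 and Il1a at 3.08 on the few counts given above. Il11 had 3.12 and 3.92 CPM in experiment 1 and 5.72 and 4.43 CPM in experiment 2.

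A list of partners held related ligands and co-receptors, signalling genes and processing enzymes. Of these 50 genes, 48 were tested and 41 were expressed. Among the most abundant were the shedding protease Adam10 at 102 ± 3.52 TPM, Csf1 at 101 ± 12.8 TPM, the kinase Jak1 at 86.8 ± 3.61 TPM and the transcription factor Stat3 at 66.7 ± 2.11 TPM. Without the block edgeR called 0 of 48 and found 3 at an unadjusted p under 0.05, Nfkbiz, Clcf1 and Zc3h12a, where 6.88% of all genes passed. DESeq2 called 0 and found 2 at an unadjusted p, where 2.14% of all genes passed. With the block edgeR called 2, Clcf1 and Nfkbiz, against 3.75% of all genes, and both fell. DESeq2 with the block gave an adjusted p for 7 partners, these 2 not among them, and called 0. The median log2 fold change of the partners was -0.0384.

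Clcf1, a ligand of the gp130 family, had 14.0 CPM in control 1 and 9.14 CPM in PEDF 1, and 16.3 CPM in control 2 and 12.1 CPM in PEDF 2. Its log2 fold change with the block was -0.51 ± 0.14 (edgeR, adjusted p = 0.0104). Nfkbiz, a nuclear IkappaB protein induced by IL-1 and IL-17, had 22.0 CPM in control 1 and 16.8 CPM in PEDF 1, and 25.9 CPM in control 2 and 19.5 CPM in PEDF 2. Its log2 fold change with the block was -0.40 ± 0.11 (edgeR, adjusted p = 0.0110). In both genes the PEDF libraries lay below both controls. Zc3h12a, an RNase that degrades Il6 mRNA, had a log2 fold change of -0.58 with the block (edgeR, adjusted p = 0.0878) and did not pass.

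Some of these values carry a limit of the counting. Exons of Il4i1 lie for 83.9% of their length opposite those of Tbc1d17, and the strand setting of the counting was not given, so reads of these 2 genes may not be told apart. Il2rg shares 30.5% of its exon length with Gm20489 on the same strand, and Il10rb shares 14.9% with Gm21970. Genes of the opposite strand also cover 40.0% of the exon length of Il12rb2, 27.1% of Il5, 15.3% of Il16, 14.5% of Il17b, 11.2% of Il1a and 10.1% of Il27. The values of all 9 genes are therefore uncertain, and the other overlaps were each below 10% of the exon length.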

How the data were processed

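Per the labels and the study's methods, the authors selected polyadenylated RNA for directional libraries, checked the paired reads with FastQC 0.11.7, trimmed them with Trimmomatic 0.38, aligned them to mm10 with HISAT2 2.1.0 (SAMtools 1.9) and assigned uniquely mapped reads to genes with featureCounts 1.6.3. The authors deposited these counts without normalization, and TPM values whose conversion, like the annotation and the strand setting, is not given in the sources used here. Coordinates of 83 of the 84 members equal GENCODE M21.

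Treatments were compared on the counts alone, without a covariate, since the study's methods name none, by the robust quasi-likelihood test of edgeR 4.0.16 (R 4.3.3, TMM). P-values were adjusted by Benjamini and Hochberg's method across all 19384 genes that reached 10 counts over the 4 libraries. CPM use TMM-scaled library sizes. TPM served only for levels and for the limit of 1 TPM in every library. The members and lists were chosen with earlier results of these data known. Named genes were those with an adjusted p under 0.05 in the fit with or without the block or between experiments, an unadjusted p under 0.05, or a mean of at least 1 TPM, together with Il1a, Il1b and Il6. Of the partners they were those called, with or without the block, and the 5 most abundant, of which 1 is not reported here. Il31ra, Il7r, Zc3h12a and others outside this rule were chosen after their values were seen.

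Each experiment had its own embryos, which pairs its libraries. Over 10722 genes the experiment difference in controls correlated with that in PEDF libraries (r = 0.423, across genes, which are not independent). With 14722848 to 18144640 counts a library, 3 counts correspond to 0.168 to 0.203 CPM. Alternatives were DESeq2 1.42.0, limma 3.58.1 on log2(TPM + 1) and log2(TPM + 0.1), RLE factors, other filters, the block, the block with a gene length offset (spline of 5 degrees of freedom) and each library left out. The tests were tested on simulated data.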

Additional observations from a re-analysis of the deposited data

Results flagged for a closer look

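For 4 of the 45 tested members the PEDF library lay on opposite sides of its control in the 2 experiments, with counting intervals that did not overlap (8.89%, against 3.84% of all genes tested). With 1 library in each arm the difference between the experiments was not tested across replicates. Il1r1 had a log2 ratio of 0.161 in experiment 1 and -0.0942 in experiment 2, at 75.2 and 84.0 CPM against 83.7 and 78.4 CPM in control and PEDF. Il2rg had -0.968 and 1.55, on 26 and 14 counts in experiment 1 and 15 and 44 in experiment 2. Il18 had 2.25 and -0.468, on 5 and 25 counts and on 18 and 13. Il7r, the IL-7 receptor, had 1.39 and -2.39, on 4 and 11 counts and on 21 and 4. The last 3 are genes known from leukocytes or epithelia and rest on fewer than 50 counts a library.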

How the results depend on the processing

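With no block, 0 members had an adjusted p under 0.05 for PEDF under both other filters, RLE factors, DESeq2 and both limma fits. Leaving out each library in turn gave 0 to 1, the 1 being Il1rl1 without control 1. The replicate block in edgeR gave 2 and the block with the gene length offset 1. DESeq2 with the block called 0, but gave an adjusted p for 1 member alone, Il6st. At an unadjusted p under 0.05 the 4 members became 5 without the filter on low counts, 6 with the replicate block in edgeR, 1 with DESeq2, 2 with limma on log2(TPM + 1), 2 on log2(TPM + 0.1), 1 with the replicate block in DESeq2 and 1 to 3 with a library left out. The signalling partners went from 0 to 2 with the replicate block in edgeR and 2 with the gene length offset as well. Between experiments the 0 members became 1 without the filter on low counts, 1 with the replicate block, 1 with the block and gene length, and 0 to 2 with a library left out (Il11ra1, and without PEDF 2 also Il1rl1). The 28 expressed members became 19 at a limit of 2 TPM, 33 at 0.5 TPM, 45 at 10 counts in total and 62 at 1 count in any library. The median log2 fold change lay between -0.0447 and -0.00106 under every alternative run. Of 33 named members 17 kept the sign of the log2 fold change under all of these. The block changed no other call of a member. Depth limits the many members with fewer than 100 counts.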

Other observations

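A few genes with low counts had uneven values across the libraries, and those tested did not pass. Il31ra, the receptor chain for IL-31, whose ligand gene had no count, had 6 counts in control 1, 14 in PEDF 1, 8 in control 2 and 16 in PEDF 2. Its log2 fold change of 1.06 ± 0.60 (edgeR, adjusted p = 0.758) was the only one above 1 or below -1 among the 45 tested members. Il21r had 3 counts in each of 3 libraries and 9 in PEDF 2. Il5, the eosinophil growth factor, had 1 count in control 1, 7 in PEDF 2 and none in the others.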
